A study of Homo sapiens with 15 samples.

Results

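A set of 10 genes of simple epithelia was followed through cardiac differentiation of H1, an established human embryonic stem cell line. They are the keratins KRT8, KRT18, KRT19 and KRT7, the surface and junction genes EPCAM, CDH1, CLDN6 and CLDN7, and the regulators ESRP1 and GRHL2. The genes were chosen by name, and all 10 were found among the 48777 genes listed, by Ensembl identifier and GENCODE v44 symbol. Bulk RNA-seq of total RNA depleted of ribosomal RNA covered days 0, 4, 9, 11 and 20, each day with 3 biological replicates, which makes 15 libraries. Days follow the sample labels. In its results the study also names days 9 and 11 for its bulk RNA-seq. Its methods give a harvest on day 7 in place of the labelled day 9, and this difference was not resolved here. Day 0 was the undifferentiated cells in Nutristem medium, and by the treatment text of the labels the cells were confluent on day 4, when the WNT activator CHIR99021 was added in RPMI medium with B27 lacking insulin. The WNT inhibitor IWP2 followed on day 7, and the growth text of the labels gives other days for both agents. The sample labels give laminins LN521 and LN221 for every library, and the deposited sample table lists LN521 alone for day 0. All libraries came from 1 line in culture dishes, so that each value is an average over the cell types then present. A bulk value cannot tell fewer cells of a type from less RNA per cell.

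Simple epithelia are single layers of polarised cells, and embryonic stem cells grow as such a layer. Their cytoskeleton holds keratin filaments built from pairs of a type II keratin (KRT8 or KRT7) and a type I keratin (KRT18 or KRT19). Neighbouring cells are joined by E-cadherin (CDH1) in adherens junctions, by claudins (here CLDN6 and CLDN7) in tight junctions and by desmosomes, to which the keratin filaments attach. EPCAM is a surface adhesion molecule of epithelia that associates with CLDN7. GRHL2 is a transcription factor that activates epithelial genes, CDH1 and claudins among them, and ESRP1 is a splicing factor that sets the epithelial isoforms of many transcripts. SNAI1, SNAI2, ZEB1 and ZEB2 are repressors of epithelial genes that bind the E-box CACCTG.

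That motif is shown for CLDN7, the only gene with matches among those whose promoters were available. A link between the motif and the level of any gene was not tested. Promoters of KRT8, CLDN6 and CLDN7, 3 of the 10 genes, were in the RefSeq promoter table (GRCh38.p14). CACCTG was searched in the 250 bases before each start as these letters or as CAGGTG, its reverse complement, so that both strands were covered and no other motif was searched. At least 1 match stood in 17.5% of the 35116 promoters of the table and at least 4 in 0.122%. None stood before the listed starts of KRT8 and CLDN6 or before the upstream start of CLDN7. Before the downstream start of CLDN7, on the minus strand of chromosome 17, there were 4 matches. The 3 stretches below hold them, 5′ to 3′ on the strand of the gene, with the matches in capitals.
CLDN7 far: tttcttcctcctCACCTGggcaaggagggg
CLDN7 middle: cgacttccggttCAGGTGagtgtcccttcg
CLDN7 near: tatactCAGGTGcgcccCACCTGtcc
They lie at chr17:7262635-7262664, chr17:7262596-7262625 and chr17:7262479-7262504, and the matches begin 174, 135, 20 and 9 bases before that start. All 3 stretches lie within 5 annotated CLDN7 transcripts of GENCODE v44 and in an untranslated exon part of 1 of them. A match is a description of the letters, and no binding was measured.

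On days 0 and 4 the cells carried high junction transcripts and moderate keratin transcripts. In TPM, which is scaled by gene length and library and can be compared between genes, CLDN6 ranked highest of the 10 with 1936 ± 136 TPM (SD, n = 3) on day 0 and place 41 among all genes. CDH1 came next with 591 ± 135 TPM and EPCAM with 424 ± 106 TPM, whose replicates overlapped between 439 and 536 TPM. KRT19 followed at a mean of 232 TPM, above KRT8 in every replicate. KRT8, ESRP1, KRT18 and CLDN7 had means of 175, 167, 138 and 125 TPM, and the replicates of neighbours in this order overlapped. GRHL2 stood at 38.5 ± 4.51 TPM and KRT7 was lowest at 14.1 ± 7.02 TPM.

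From day 0 to day 4 no difference in the 10 genes passed the threshold. The 6 libraries of both days were fitted to their counts in edgeR (quasi-likelihood), with p-values adjusted by Benjamini-Hochberg across every gene that entered the fit and called under 0.05. SE stands for the standard error of such a change. Of 20964 genes tested, 0 passed (0%), while 741 had an unadjusted p under 0.05, and DESeq2 also called 0 with 703 unadjusted. The largest difference among the 10 was in CDH1, with a log2 fold change of 0.42 (SE 0.21, edgeR adjusted p = 0.885). In CLDN6, CLDN7, ESRP1 and GRHL2 the log2 fold changes lay between −0.00 and 0.22. Replicates of KRT8 and CDH1 were higher without overlap in CPM (2 of 10, where 4.93% of genes were), and 0 of 10 were lower without overlap (5.08% of genes).

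**Figure D1:**
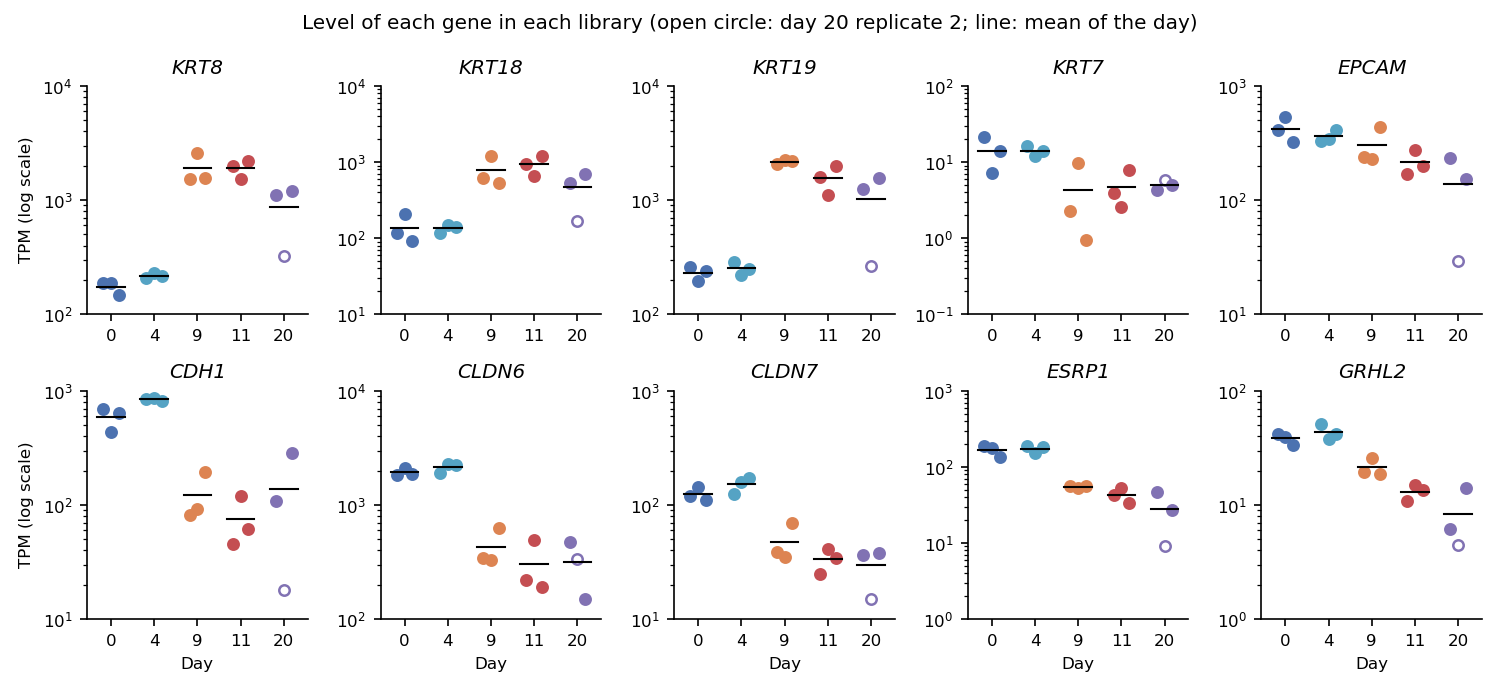
TPM (log scale) of each of the 10 genes in each library by day, with 3 points per day, a line at the mean and an open circle for day 20 replicate 2. KRT8, KRT18 and KRT19 stand higher from day 9 on than on days 0 and 4, with a lower open circle, whereas CDH1, CLDN6, CLDN7, ESRP1 and GRHL2 stand lower.

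Between day 4 and day 9 the keratins and the junction genes moved in opposite directions. KRT8, KRT18 and KRT19 rose, while CDH1, CLDN6, CLDN7, ESRP1 and GRHL2 fell. KRT7 and EPCAM did not pass the threshold. Thus 3 of the 10 genes were higher, where 24.3% of the 21252 genes tested were, and 5 were lower, where 24.7% were. In all, 49.0% of genes passed, so that a share of 8 in 10 belongs to a transcriptome of which nearly every other gene moved. In CPM the replicates did not overlap in 3 members that were higher (30.2% of genes) and in 6 that were lower, KRT7 included (29.9% of genes).

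KRT8, the type II keratin of simple epithelia, had 208, 230 and 217 TPM in the replicates of day 4, which became 1532, 2609 and 1556 TPM on day 9. Every day 9 library was thus above every day 4 library by a wide margin. The log2 fold change was 3.12 (SE 0.20, edgeR adjusted p = 1.1e-05), or 8.70-fold. KRT18, its partner of type I, went from 118, 147 and 138 TPM to 615, 1196 and 531 TPM. The days did not overlap, and the log2 fold change was 2.53 (SE 0.27, edgeR adjusted p = 0.000192), or 5.76-fold.

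KRT19, the smallest type I keratin, went from 287, 222 and 250 TPM to 2068, 2253 and 2188 TPM. Its day 9 replicates lay closest together of the 3 keratins, and it had the highest mean of the 10 genes on that day, place 31 among all genes. The log2 fold change was 3.12 (SE 0.15, edgeR adjusted p = 3.3e-06). KRT7, the other type II keratin, was the exception among the keratins. It stood at 16.1, 12.2 and 13.9 TPM on day 4 and at 2.28, 9.75 and 0.959 TPM on day 9, lower in every library but with wide spread. Its log2 fold change was −1.75 (SE 0.66, edgeR adjusted p = 0.0603), and without day 9 replicate 2, the highest, it was −3.08 (edgeR adjusted p = 0.000197). Leaving out each library in turn gave −3.08 to −1.25, and no other omission gave a call.

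KRT8 and KRT18 are neighbours on chromosome 12 of GRCh38, from 52897187 to 52949954 on the minus strand and from 52948871 to 52952906 on the plus strand. Annotated exons of the pair overlap there, and since no source used here gives the strand setting of the counting, part of their reads could have been assigned to either. KRT7 lies on the same chromosome from 52232520 to 52252186, and its exons overlap KRT7-AS and KRT87P on the opposite strand, which had 181 and 109 counts over all libraries beside 3193 for KRT7. Both rising keratins of that locus also have many processed pseudogenes. Of 51 annotated KRT8 pseudogenes 45 were listed, and they held between 1.12% and 10.0% of the counts of gene and pseudogenes together. For KRT18, 55 of 68 were listed, with 1.34% to 23.9%, and the highest share was in day 20 replicate 2. With the pseudogene counts added to their genes, an alternative chosen after the data were seen, the log2 fold change from day 4 to day 9 was 3.01 for KRT8 and 2.45 for KRT18. KRT19, on chromosome 17 from 41523617 to 41528308, has 3 listed pseudogenes with at most 1.10%, and no exon of another gene overlaps it.

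Among the junction genes, CDH1 fell furthest. E-cadherin transcripts numbered 850, 869 and 810 TPM in the replicates of day 4 but 81.4, 93.0 and 193 TPM on day 9, without overlap. The log2 fold change was −2.75 (SE 0.34, edgeR adjusted p = 0.000477), or 6.74-fold lower. CLDN6, a claudin of embryonic epithelia and the most abundant of the 10 on day 4, went from 1891, 2265 and 2244 TPM to 341, 330 and 622 TPM. No library of the days overlapped, and the log2 fold change was −2.28 (SE 0.28, edgeR adjusted p = 0.000364).

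CLDN7, the partner of EPCAM, went from 124, 159 and 173 TPM to 38.5, 35.0 and 69.5 TPM, again without overlap. The log2 fold change was −1.64 (SE 0.29, edgeR adjusted p = 0.00251). EPCAM itself overlapped between the days, with 329, 344 and 413 TPM on day 4 and 237, 230 and 440 TPM on day 9. Day 9 replicate 3 was the highest of these 6 libraries, and the log2 fold change was −0.23 (SE 0.27, edgeR adjusted p = 0.518). Without that replicate it was −0.60 (edgeR adjusted p = 0.00721). Leaving out each library in turn gave −0.60 to −0.0069, and no other omission gave a call.

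The same library, day 9 replicate 3, was also the highest of its day in CDH1, CLDN6 and CLDN7 and the lowest in KRT18 and KRT7. CLDN6 shares exon sequence with TNFRSF12A on the opposite strand of chromosome 16 (3014712 to 3020071), and CLDN7 with ELP5 on chromosome 17 (7259903 to 7263983), which had 17099 and 12199 counts over all libraries. CLDN6 had 171341 counts and CLDN7 18501. EPCAM on chromosome 2 (47345158 to 47387601) has no such overlap, and CDH1 on chromosome 16 (68737292 to 68835537) has one with a gene of 40 counts.

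Both regulators fell with the junction genes. ESRP1 stood at 186, 154 and 180 TPM on day 4 and at 55.7, 53.2 and 56.6 TPM on day 9, nearly equal in the 3 later libraries. The log2 fold change was −1.63 (SE 0.13, edgeR adjusted p = 3.5e-05). GRHL2 stood at 51.3, 37.8 and 41.6 TPM on day 4 and at 19.6, 25.9 and 18.7 TPM on day 9, the smallest fall of the 5 genes past the threshold. Its log2 fold change was −1.02 (SE 0.15, edgeR adjusted p = 0.000757). Both genes lie on chromosome 8, ESRP1 from 94641074 to 94707466 and GRHL2 from 101492439 to 101669726.

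**Figure D2:**
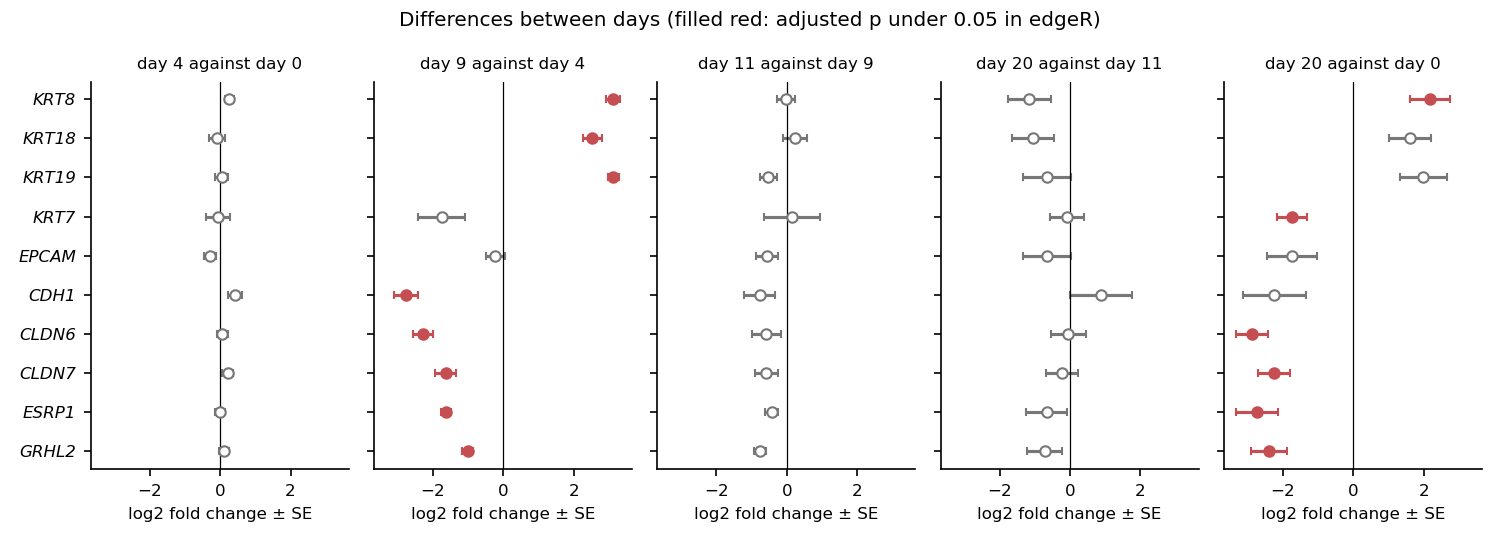
Log2 fold change with its standard error for the 10 genes in the 5 comparisons of days, from edgeR, with filled red points at an adjusted p under 0.05. Day 9 against day 4 has 3 filled points on the right and 5 on the left, and the steps from day 0 to 4, 9 to 11 and 11 to 20 have none.

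The other genes of epithelial cells did not move as one between day 4 and day 9. Desmosome genes had more higher than lower members, unlike the other junction lists. Of 13 such genes 12 were tested, 6 were higher and 3 lower, and the median log2 fold change was 0.33, where that of all genes was 0.01. DSP (desmoplakin), which anchors keratin filaments at desmosomes, rose by a log2 fold change of 2.26 (edgeR adjusted p = 4.3e-05), PKP2 (plakophilin 2) by 3.44 and JUP (plakoglobin) by 1.11. PPL (periplakin), another plaque protein, was lower by −0.90 (edgeR adjusted p = 0.0295), a call lost in 4 of 6 leave-one-out fits (edgeR adjusted p from 0.0670 to 0.0957). DSP stood at 64.8, 81.6 and 91.4 TPM on day 4 and at 281, 448 and 400 TPM on day 9. Desmosomes also join cardiomyocytes, so that these genes are not markers of epithelium alone.

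Other tight junction genes were 3 higher and 8 lower of 21, with a median log2 fold change of −0.30. CLDN10 fell by 3.38, CLDN1 fell by 2.32 and the membrane protein MARVELD3 fell by 1.60 on the log2 scale. TJP3, a scaffold protein below the junction, fell by 1.53. Adherens junction genes other than CDH1 were 1 higher and 6 lower of 10 (median −0.52), the adhesion receptors NECTIN3 (−1.65) and NECTIN1 (−1.20) and the actin linker VCL (−0.96) among the latter.

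Polarity genes were 3 higher and 4 lower of 13, with a median of 0.01. The apical protein CRB2 rose by 2.27 and its relative CRB3 fell by 1.09 on the log2 scale, and PARD6A of the PAR complex fell by 2.81. Of the 15 other epithelial regulators 13 were tested, 4 were higher and 7 lower, with a median of −0.74. KLF5 rose by 1.92, while TFAP2C fell by 1.44 and OVOL1 by 1.33 on the log2 scale. TFAP2A was higher by 1.86 (edgeR adjusted p = 0.0315), but without day 9 replicate 2 by 0.984 (edgeR adjusted p = 0.0539), and its call was lost in 5 of 6 leave-one-out fits.

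Of 16 other surface and trafficking genes of epithelia, 3 were higher and 12 lower (median −1.25). The surface protein CDCP1 fell by 3.25, the protease-activated receptor F2RL1 by 2.48 and the protease ST14 by 2.34 on the log2 scale. S100A14 rose by 4.65, from 6.73 to 7.89 TPM on day 4 to 80.8 to 303 TPM on day 9. Beyond KRT8, KRT18, KRT19 and KRT7, 12 further keratins were listed and 2 of them passed the filter on low counts. KRT15 rose by 3.54 and KRT10 by 0.83 on the log2 scale, and KRT10, of stratified epidermis, stood at 11.0 to 19.0 TPM on day 9. KRT5 and KRT14, the basal keratins of stratified epithelia, were named after their values were seen, and they were at most 0.355 TPM in every library of days 0 to 11.

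**Figure D3:**
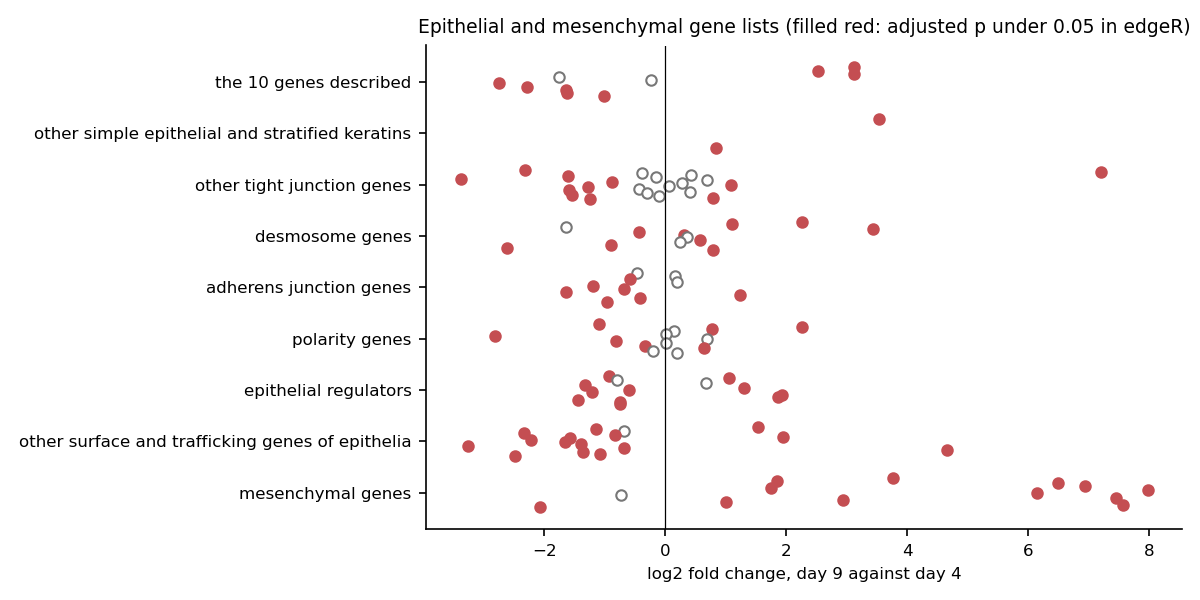
Log2 fold change of each tested gene of the 10 described and of 8 gene lists on day 9 against day 4 (edgeR), with filled red points at an adjusted p under 0.05. Surface and trafficking genes lie mostly on the left (3 higher and 12 lower), mesenchymal genes mostly on the right (11 higher and 1 lower), and desmosome genes on both sides (6 higher and 3 lower).

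Transcripts of mesenchymal cells and of the repressors named above rose on the same day. Of 13 mesenchymal genes tested 11 were higher and 1 lower, with a median log2 fold change of 3.76. SNAI2 stood at 0.159 to 0.956 TPM on day 4 and at 122, 101 and 138 TPM on day 9 (log2 fold change 7.97, edgeR adjusted p = 8.5e-06). ZEB2 rose by 6.94 and ZEB1 by 6.49, from at most 0.198 and 0.14 TPM on day 4, while SNAI1 was present before at 19.4 to 24.4 TPM and rose by 1.74. N-cadherin (CDH2) rose by 1.84 on the log2 scale, from 87.6 to 109 TPM up to 278 to 427 TPM, and thus exceeded CDH1 in every day 9 library. VIM, the intermediate filament protein of mesenchyme, rose by 3.76 to 1127 to 1737 TPM, so that it and KRT8 were abundant in the same libraries.

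Markers of several cell types moved with the members, and their part in the keratin and junction values was not tested. All 10 pluripotency markers fell, and their summed level went from 8490 to 9478 TPM on day 4 to 2065 to 2542 TPM on day 9. POU5F1 (OCT4) was still at 61.4 to 115 TPM on day 9. Of 18 markers of yolk sac and liver type cells 15 were tested and 12 were higher, with a summed level of 8.84 to 15.6 TPM on day 4, when APOC3 was at 0, and 555 to 1649 TPM on day 9. Of 14 markers of trophoblast, amnion and surface ectoderm 9 were tested and 6 were higher (48.0 to 69.6 TPM, then 408 to 828 TPM). GATA3 was among them at 53.5 to 75.9 TPM on day 9, while TP63 was at most 0.835 TPM. HAND1 and GATA2 of this list rose by 8.70 and 4.83 on the log2 scale. These genes are not markers of such cells alone, so that the summed level does not name a cell type.

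Of 12 mesothelial and epicardial markers 10 were tested, 8 were higher and 1 was lower (21.5 to 24.6 TPM on day 4, then 162 to 249 TPM). ITLN1 was at 0 on day 4. WT1 reached 11.1 TPM in 1 day 9 library and at most 0.689 TPM in the others, and UPK3B, the lower one, was at 0.356 to 1.22 TPM. Of 12 cardiomyocyte markers 11 were tested and 7 were higher (34.0 to 35.3 TPM, then 524 to 1996 TPM). Of 10 endothelial markers 4 were higher and 3 lower (266 to 517 TPM, then 404 to 826 TPM). Of 10 markers of gut tube endoderm 4 were tested, 2 were higher and 1 lower (846 to 1011 TPM, then at most 58.3 TPM), and SOX2, which stem cells share with the foregut, made up nearly all of the earlier sum.

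From day 9 to day 11 no member passed the threshold, where 2.39% of the 20679 genes tested did (1.39% higher and 1.00% lower). In CPM, 0 members were higher without overlap (11.7% of genes) and 2 were lower, KRT19 and GRHL2 (12.4% of genes). GRHL2 had the lowest edgeR adjusted p of the 10, 0.0725, and was the 1 member with an unadjusted p under 0.05. DESeq2 called 1 member lower, GRHL2. KRT8 stood at 2003, 1533 and 2193 TPM on day 11 and KRT18 at 955, 656 and 1191 TPM, both overlapping with day 9. KRT19 stood at 1579, 1104 and 2011 TPM, below each day 9 library, with a log2 fold change of −0.52 (SE 0.25, edgeR adjusted p = 0.342). GRHL2 stood at 10.7, 14.97 and 13.4 TPM, also below each day 9 library, with a log2 fold change of −0.76 (SE 0.18). By the labels only plates 2 and 6 held a library of both days, so that a fit with the plate as a replicate block compares the days within these 2 plates alone. In that fit 1171 of the 20679 genes tested were higher and 800 lower. Of the members 4 passed in it, all lower on day 11. These were CDH1 (−0.75), CLDN6 (−0.74), ESRP1 (−0.58) and GRHL2 (−0.94), with adjusted p-values from 0.00294 to 0.0243 in edgeR.

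Among the 3 day 11 libraries, replicate 2 differed from replicates 1 and 3 in the same opposite way as the days. Replicates 1 and 3 did not differ in that way, since KRT8, KRT18, KRT19, EPCAM and CDH1 were all higher in replicate 3. Replicate 2 had the lowest KRT8, KRT18 and KRT19 of its day and the highest EPCAM (273 TPM), CDH1 (119 TPM) and CLDN6 (497 TPM). Replicates 1 and 3 had 169 and 200 TPM of EPCAM and 45.5 and 61.4 TPM of CDH1. CLDN6 was at 222 and 191 TPM in them. In the cardiomyocyte myosin gene MYH6, replicate 2 stood at 10863 TPM against 2745 and 1598 TPM, and in AFP, a yolk sac and liver gene, at 35.8 TPM against 231 and 581 TPM. The part of these cells in the member values was not tested. Between days 9 and 11, the desmosome, adherens junction, polarity and surface lists had 0 calls, 1 other tight junction gene (CLDN11) and 2 of 13 tested epithelial regulators were lower, and 9 of 12 cardiomyocyte markers were higher. The call of CLDN11 (−2.80) was lost in 4 of 6 leave-one-out fits (edgeR adjusted p from 0.0663 to 0.126).

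From day 11 to day 20 no member passed the threshold either, where 1.55% of the 21398 genes tested did (1.12% higher and 0.435% lower), and DESeq2 also called 0 members. With edgeR 0 of the 10 had an unadjusted p under 0.05, and KRT8 was lowest with 0.0928. In CPM, 0 members were higher without overlap (11.8% of genes) and KRT8 alone was lower (10.6% of genes). The spread on day 20 was wide. KRT8 stood at 1120, 322 and 1192 TPM, KRT18 at 526, 169 and 704 TPM and KRT19 at 1248, 265 and 1552 TPM, each lowest in replicate 2.

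Day 20 replicate 2 stood apart from the other libraries. It listed 48230 genes, where the others listed 30886 to 39551, and its RNA integrity number was 6.1, where the others were between 8.8 and 10. Of 708 protein-coding genes that had 2 counts or fewer when the 12 earlier libraries were summed, 99.9% had reads in it, at a median of 3.32 TPM, against 13.7% and 57.8% in the other day 20 libraries. Against this median KRT8 stood 96.8 times as high in it and KRT19 79.6 times, but GRHL2 (4.50 TPM) and KRT7 (5.86 TPM) stood 1.35 and 1.76 times as high, and ESRP1 (9.26 TPM) 2.78 times. The members at that level in this library cannot be told apart from reads that silent genes carried in it. In AFP the 3 libraries stood at 13772, 516 and 14210 TPM, and in the cardiac troponin gene TNNT2 at 838, 1745 and 353 TPM.

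CDH1 and CLDN6 differed in opposite ways between the other two day 20 libraries. CDH1 stood at 108 TPM in replicate 1 and 287 TPM in replicate 3, the latter above every library of days 9 and 11. CLDN6 went the other way, with 471 and 151 TPM. In replicate 2 they were at 17.8 and 336 TPM.

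**Figure D4:**
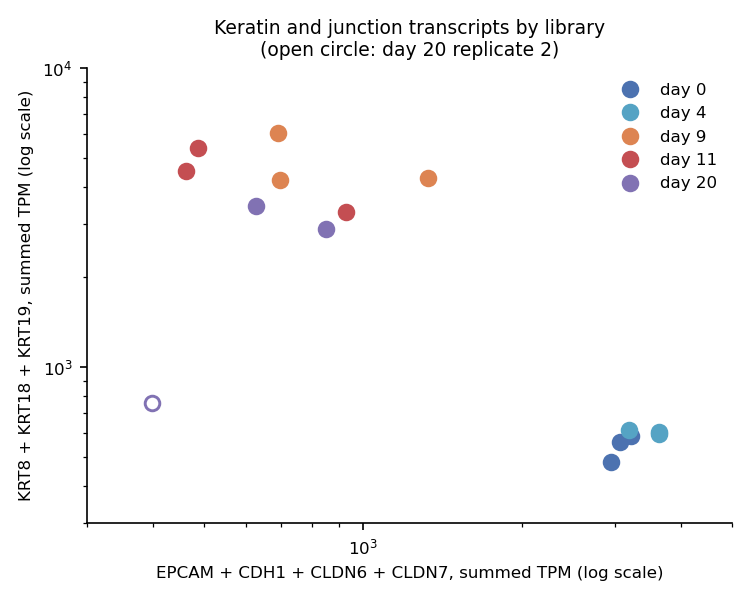
Summed TPM of KRT8, KRT18 and KRT19 against summed TPM of EPCAM, CDH1, CLDN6 and CLDN7 in each library (log scales), coloured by day, with an open circle for day 20 replicate 2. The 6 libraries of days 0 and 4 lie at 482 to 613 TPM of keratins and 2947 to 3639 TPM of junction transcripts, and those of days 9 and 11 at 3292 to 6058 TPM and 461 to 1325 TPM.

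Over the whole course, day 20 against day 0, the same directions remained in part. KRT8 rose, and KRT7, CLDN6, CLDN7, ESRP1 and GRHL2 fell, which makes 1 of 10 members higher, where 16.1% of the 21988 genes tested were, and 5 lower, where 11.3% were (27.4% in either direction). In CPM the replicates did not overlap in KRT8 as the 1 higher member (24.2% of genes) and in 7 lower ones (22.5% of genes). KRT8 had a log2 fold change of 2.18 (SE 0.57, edgeR adjusted p = 0.0240). The median of all genes was itself 0.11, which is small beside these values. CLDN6 had the largest difference, −2.87 (SE 0.46, edgeR adjusted p = 0.00348), followed by ESRP1 with −2.74 (edgeR adjusted p = 0.0119). GRHL2 was lower by a log2 fold change of −2.39, CLDN7 by −2.25 and KRT7 by −1.75.

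KRT18, KRT19, EPCAM and CDH1 did not pass, with log2 fold changes of 1.62, 1.99, −1.74 and −2.24 and adjusted p-values from 0.0567 to 0.0997 in edgeR. Without day 20 replicate 2, all 10 passed, 3 higher and 7 lower, where 4823 of the 23258 genes tested were higher and 4170 lower. KRT8 was then at 2.62, KRT19 at 2.47, KRT18 at 2.06, EPCAM at −1.24 and CDH1 at −1.70. The call of KRT8 was lost without any 1 of the other 5 libraries, at adjusted p-values between 0.0531 and 0.119 from edgeR. That of KRT7 was lost without day 0 replicate 1 (−1.53, adjusted p = 0.0740) or replicate 3 (−1.73, adjusted p = 0.0665), and that of ESRP1 without day 0 replicate 2 (−2.76, adjusted p = 0.0529), all from edgeR. With limma on log2(TPM + 1) KRT7 did not pass either (−1.21, adjusted p = 0.0529). The number of members past the threshold ranged from 4 to 10 over the 6 leave-one-out fits.

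Of the further lists on day 20 against day 0, desmosome genes were 3 higher and 0 lower of 12 tested, with DSC3 (4.19), PKP2 (3.39) and DSP (3.22) higher on the log2 scale. Without day 20 replicate 3 DSC3 was higher by 2.17, and its call was lost without any 1 of the day 0 libraries (edgeR adjusted p from 0.0503 to 0.0721). Other tight junction genes were 0 higher and 5 lower of 20, with CLDN10 (−4.79) the largest of them. Other surface and trafficking genes were 1 higher and 6 lower of 16, with S100A14 at 6.32 and CD24, a surface glycoprotein of stem cells and epithelia, at −3.25. ESRP2, the paralog of ESRP1, was lower by −1.78, and NECTIN4 was higher by 3.54 in the adherens junction list, which had 1 higher and 2 lower. KLF5 was higher by 2.47 (a call lost without any 1 of the day 0 libraries) among the epithelial regulators, 2 higher and 2 lower of 13. Polarity genes were 1 higher and 1 lower. ZEB1 (7.92) and ZEB2 (7.81) were among the 9 of 13 mesenchymal genes that were higher.

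All 18 yolk sac and liver type markers, 12 of 12 cardiomyocyte markers and 7 of 10 tested mesothelial markers were higher on day 20 than on day 0, and all 10 pluripotency markers were lower. The summed level of the yolk sac and liver type markers was 25782, 1025 and 30894 TPM in the day 20 replicates, and KRT8, KRT18, KRT19, EPCAM, CDH1, CLDN7, ESRP1 and GRHL2 were likewise lowest in replicate 2. UPK3B was at 62.3 TPM and WT1 at 32.1 TPM in replicate 3, the library with the most CDH1, and at 3.27 and 4.58 TPM in replicate 1. The part of these cell types in the member values was not tested.

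Ratios between 2 members within a library do not depend on its depth, and 5 of them were compared between the 6 libraries of days 11 and 20 and the 6 of days 0 and 4. The log2 ratio of counts was used after adding 0.5, with an exact two-sided permutation test adjusted over the 5 ratios by Benjamini-Hochberg. Each side pools 2 days as if their libraries were replicates of 1 group. The SD and the p-value thus mix differences between days with those between replicates. The ratio is between counts, so that its level also reflects gene length, while its difference between days does not. KRT8 to CDH1 stood at −2.15 ± 0.32 (SD, n = 6) on days 0 and 4 and at 3.68 ± 1.25 (SD, n = 6) on days 11 and 20. The difference of 5.83 was positive in every pair of libraries (exact permutation p = 0.0022, the smallest possible, adjusted p = 0.0036).

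KRT18 to EPCAM rose by 3.59, from between −1.47 and −0.87 to between 1.52 and 2.92 (exact permutation p = 0.0022, adjusted p = 0.0036). The keratin of type I thus gained on the surface protein. EPCAM had day means of 424 and 362 TPM on days 0 and 4 and of 214 and 139 TPM on days 11 and 20. Its lower later level thus also enters this ratio. KRT7 to KRT8 fell by 4.14 on the log2 scale, from −4.15 ± 0.58 to −8.30 ± 1.22 (SD, n = 6), with the same exact permutation p and adjusted p. In TPM, KRT7 made up 3.62% to 10.2% of the type II pair KRT7 and KRT8 on days 0 and 4. On days 11 and 20 it made up 0.169% to 1.79%, with the highest of these shares in day 20 replicate 2. On day 9 the share was 0.0616% to 0.372%.

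The ratio of the type I keratins did not pass the threshold. KRT19 to KRT18 stood at 0.40 ± 0.54 (SD, n = 6) and 0.42 ± 0.25 (SD, n = 6), a difference of 0.02 (exact permutation p = 0.942, adjusted p = 0.942). On day 9 alone it was higher, 1.29, 0.45 and 1.58 in the replicates, with 2 of 3 above all other libraries. In TPM, the type I keratins KRT18 and KRT19 together exceeded the type II keratins KRT8 and KRT7 in every library, by 1.15 to 2.06 times. CLDN6 to CLDN7 stood at 3.37 ± 0.13 (SD, n = 6) and 2.71 ± 0.89 (SD, n = 6), a difference of −0.66 (exact permutation p = 0.117, adjusted p = 0.146). Without day 20 replicate 2 it was −0.91 (exact permutation, adjusted p = 0.00541), and with day 9 counted among the later days −0.68 (exact permutation, adjusted p = 0.0325).

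Within the sequencing lanes that held libraries of both periods (lanes 1, 2 and 5), KRT8 to CDH1 rose by 4.88, 6.56 and 6.45, and KRT18 to EPCAM by 3.25, 4.12 and 3.30. KRT7 to KRT8 fell in each by 4.73, 2.99 and 4.82. KRT19 to KRT18 was lower in all 3 lanes, by −0.04, −0.15 and −0.29, and CLDN6 to CLDN7 by −1.16, −0.23 and −0.50.

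**Figure D5:**
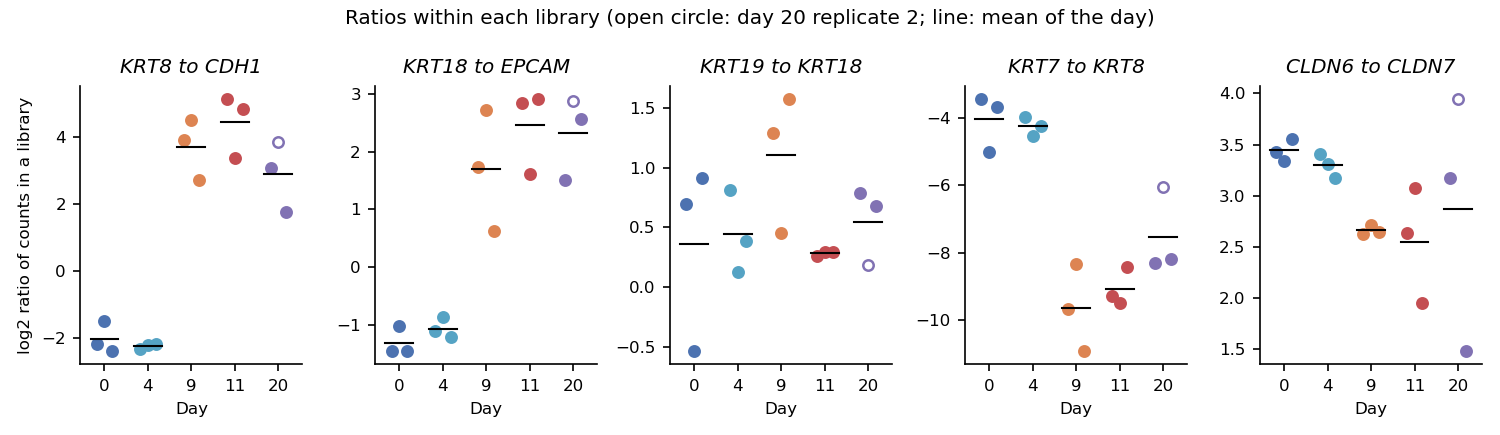
Log2 ratio of counts between 2 members in each library by day, with a line at the mean and an open circle for day 20 replicate 2. KRT8 to CDH1 lies between −2.42 and −1.52 on days 0 and 4 and between 1.75 and 5.16 on days 11 and 20, and KRT19 to KRT18 overlaps between the days.

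The course of EPCAM and that of KRT18 were each compared with all other protein-coding genes of at least 5 CPM on average, 12166 genes, by Pearson's r of log2 CPM over the 15 libraries. The genes most like EPCAM were TAOK1, GON4L, SMG8, SNRNP200 and SMYD4, with r between 0.968 and 0.976. Their day means of TPM varied less than those of EPCAM, for example SNRNP200 with day means of 164, 174, 148, 136 and 108 TPM. Day 20 replicate 2, in which EPCAM was at 29.4 TPM, is among the 15 libraries, and no r was computed without it. The genes most like KRT18 were JDP2, S100A13, ERRFI1, SLC22A3 and CEP85L (r from 0.968 to 0.986), of which S100A13 went from 14.1 TPM on day 4 to 70.5 TPM on day 9. The libraries of a day share that day, so these values describe the pattern and were not tested. KRT8 and KRT18 had an r of 0.978 with each other, CDH1 and CLDN7 of 0.960, and EPCAM and ESRP1 of 0.902, whereas KRT8 and EPCAM had −0.00.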

How the data were processed

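Total RNA of H1 cells was sequenced after ribosomal RNA depletion with a stranded kit. Per the submitters' processing notes and methods, the authors aligned reads with STAR 2.5.2b to hg38, counted them per gene with featureCounts 1.5.1 and removed ribosomal and mitochondrial genes. The deposited values are raw counts per gene and TPM made by the authors from them, and the strand setting is not given in the sources used here. The RNA integrity score and the fraction of uniquely mapped reads were also deposited by the authors per library. Totals were 11990302 to 33469703 counts per library (median 22867831), which limits low genes such as KRT7. Uniquely mapped reads were 35% to 86%. In 2 libraries (day 0 replicate 3 and day 9 replicate 1) 1 short gene without a symbol took 20.0% and 17.0% of TPM and at most 0.370% of counts in any library, which lowers their other TPM. Replicates are biological per the study's text and come from 1 line, and no source used here says that they were separate differentiations. The p-values thus set a difference between days against the spread between these samples only. By the labels day 20 replicates 1 and 2 both came from plate 2.

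Counts were tested between pairs of days with edgeR 4.0.16 (R 4.3.3; TMM, filterByExpr with a minimum count of 10 and total of 15, robust quasi-likelihood fit), adjusted over all genes tested. Each fit used the 6 libraries of its days. Alternatives were DESeq2 1.42.0, upper-quartile scaling, no filter, all 15 libraries in 1 fit and limma 3.58.1 on log2(TPM + 1). Plate and lane blocks were also run, as was leaving out each library in turn. The edgeR, DESeq2 and limma steps were run on counts simulated from the means of days 9 and 11, with the same dispersion for every gene. That setting held no outlying library and no plates, and the ratio tests were not part of it. Ratios used scipy 1.17.1. Plates 2 and 6 were shared by days 9 and 11 per the labels, and the deviations of these pairs correlated at 0.134 and 0.343, while a pair sharing neither plate nor lane reached 0.338 and the same-plate pairs of days 11 and 20 had −0.175, 0.016 and 0.362. The block thus rests on the labels. Members and gene lists were chosen with earlier results of these data known. Up to 4 genes per list were named, those with the largest change past the threshold at 5 CPM or more, beside the stem cell, cardiac, mesenchymal, mesothelial and yolk sac genes named throughout. FN1 was not analysed here.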

Additional observations from a re-analysis of the deposited data

Results flagged for a closer look

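In the log2 ratio of KRT8 to CDH1, day 0 replicate 2 stood at −1.52, while the other 5 libraries of days 0 and 4 lay between −2.42 and −2.20. Its gap to the nearest library was 0.756 of the whole range, above Dixon's critical value for 6 samples. Such gaps were sought in 10 groups of libraries, and chance gives about 1 in 20 groups. This library had the lowest CDH1 of the 6 (439 TPM).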

How the results depend on the processing

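The 8 calls between days 4 and 9 held under every alternative run. Other counts of calls moved, and the cause was not tested. Without a filter on low counts 64 genes passed between days 0 and 4. With all 15 libraries in 1 fit, 6209 genes in place of 10406 passed on day 9 against 4, 3132 on day 20 against 11 and 10785 on day 20 against 0, and 74.1% in place of 58.2% of the calls on day 11 against 9 were higher. On day 11 against 9, DESeq2 called 1674 genes and 1 member, no filter gave 1016 and 1, and the plate as a replicate block gave 1971 and 4, while leaving out 1 library gave 0 to 573. On day 20 against 11, DESeq2 called 1871 genes, the lane block 137, the plate as a replicate block 3, and leaving out 1 library gave 0 to 510. On day 20 against 0, DESeq2 called 10 members and 7441 of 21988 genes. The fit of all libraries also called 10 members, with 24767 genes tested. Leaving out 1 library gave 4 to 10 members and 3128 to 8993 genes. The plate block changed no other member call, and the other pairs of days share fewer than 2 plates. With day 9 among the later days, CLDN6 to CLDN7 differed by −0.68 and passed the threshold (exact permutation, adjusted p = 0.0325), and leaving out 1 library gave −0.91 to −0.42.

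None of the log2 fold changes that turned sign had a call. On day 4 against 0, ESRP1 was 0.0171 with upper-quartile scaling, 0.0121 with no filter, 0.00846 with all libraries and 0.0622 with limma, where KRT18 was 0.0422 and KRT7 0.11. KRT8 on day 11 against 9 was 0.0377 with limma and 0.0323 with the plate block. On day 20 against 11, KRT7 was 0.0589 with upper-quartile scaling, 0.16 with limma and 0.0793 with the lane block, CLDN6 was 0.0172, 0.0612 and, with the plate block, 0.25, and CLDN7 was 0.0224 with the plate block. Leaving out 1 library gave, on day 4 against 0, KRT7 −0.40 to 0.23, CLDN6 −0.0415 to 0.16, ESRP1 −0.0756 to 0.0771, KRT18 −0.24 to 0.26, KRT19 −0.10 to 0.21 and GRHL2 −0.0348 to 0.21. On day 11 against 9 it gave KRT7 −0.41 to 1.46 and KRT8 −0.16 to 0.20, and on day 20 against 11 CLDN6 −0.62 to 0.44, KRT7 −0.43 to 0.48, CLDN7 −0.51 to 0.16 and CDH1 −0.33 to 1.42. The ratio of KRT19 to KRT18 differed by −0.17 to 0.12.

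Of the list genes named by rule, 46 results lost their call under at least 1 alternative and 0 turned sign. Among those described, TFAP2A on day 9 against 4 was also lost with no filter, all libraries in 1 fit, limma and the lane block, PPL with no filter and all libraries, TFAP2C, OVOL1 and KRT10 with all libraries, and NECTIN1 and ST14 with no filter. On day 20 against 0, S100A14 was lost with limma and without day 0 replicate 2. On day 11 against 9, TFAP2C was lost with all libraries and without day 9 replicate 1 or 3.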
